A study of Oryza sativa with 12 samples.

Results

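Rice anthers of the nup1 mutant were compared with wild-type anthers at anther stage 11, in 3 libraries of each genotype, all read from poly(A) RNA. The genes compared were all genes of the stage 11 table with a mean of 1 FPKM or more over the 6 libraries, which left 4992 of the 5084 listed. FPKM counts sequenced fragments of a transcript relative to its length and to all fragments mapped in that library. The table holds only genes that the authors had already selected for a difference between the genotypes, out of 7087 genes selected at stage 10 or 11, so a gene outside it is not analysed here. A second pair of groups in the series, of the same genotypes at stage 10, is used below only for values set side by side. The labels name the mutant and the tissue and say that replicates were biological. The mutated locus, the type of allele, the cultivar and the number of plants behind a library do not stand in those labels, so no targeted gene was checked. Male sterility, tapetal Ubisch bodies and an oxidative burst are the subjects that the study's title gives.

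The tapetum is the innermost layer of the anther wall. It feeds the developing microspores, exports wall material on small particles called Ubisch bodies, and then dies by a programmed process. Late in development the pollen grains import sugars, split sucrose with cell-wall invertases and fill with starch. Gibberellin, a plant hormone, is needed for tapetum function and for pollen development in rice, and jasmonate is needed for late stamen development. Heat shock factors are a family of transcription factors. Some of them, but not all, switch on genes of chaperones, the proteins that keep other proteins folded.

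On the deposited scale more genes were lower than higher in nup1, and the largest changes were losses. The balance of lower and higher genes turned round under other scalings, as given below. Past the threshold, which was an adjusted p under 0.01 in limma with a change over 2-fold on the log2(FPKM + 1) scale, were 1315 genes higher (26.3% of those fitted) and 2295 lower (46.0%), together 72.3%. All nup1 libraries lay above all wild-type libraries in 37.0% of genes and below them in 57.6%. Among 50 genes with the highest wild-type level, 44 were lower and 2 higher. In the 50 with the highest nup1 level, 34 were higher and 10 lower, and 13 genes stood in both sets of 50. Each set was picked on values that also form the change, among genes selected for a difference. That choice favours the direction seen in each set. A change of over 3 on the log2 scale was passed by 43 genes upward and 310 downward, and a change of over 5 by 2 and 69.

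Loss was near complete for a group of transcripts. In 66 genes every wild-type library was at 10 FPKM or more and every nup1 library under 1, and the reverse held for 5 genes. The share of lower genes was greater at higher levels. It was 36.8% of genes with a mean of 1 to 5 FPKM, 45.9% from 5 to 20, 52.4% from 20 to 100 and 62.7% at 100 or more. The share of higher genes was also smallest at the lowest levels, at 15.7%, 29.2%, 34.5% and 27.7% in the same order. The increase with level was thus not one of lower genes alone. No chromosome stood far from the rest, with the lower genes making up 58.1% to 66.1% of those past the threshold on each of the 12.

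**Figure D1:**
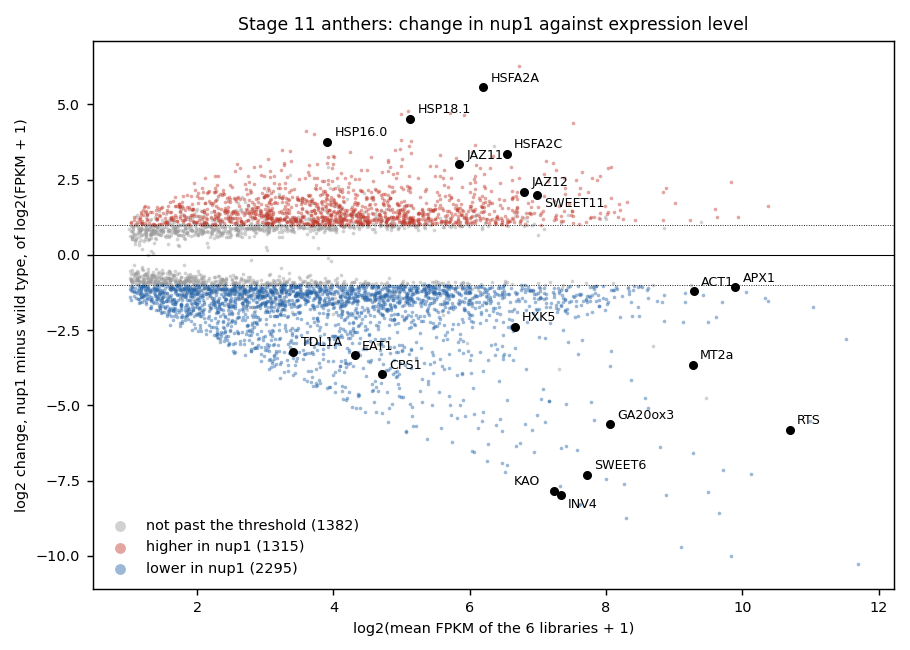
Each point is a gene of the stage 11 table, with the log2 of its mean FPKM over the 6 libraries (plus 1) across and its log2 change, nup1 minus wild type, upward; dotted lines mark a 2-fold change and black points are named genes. The 2295 lower genes reach a change of -10.26, while the 1315 higher genes end at 6.29. The gap around 0 is left by the authors' selection.

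Several facts of the libraries bear on all values. Summed over the fitted genes, wild-type libraries held 209540 to 227314 FPKM and nup1 libraries 125313 to 147883. The median SD of a gene on the log2(FPKM + 1) scale was 0.170 in wild type and 0.333 in nup1. The first nup1 library lay over 2-fold from both other nup1 libraries in 7.63% of genes, against 0.260% to 3.15% for each of the other 5 libraries. Genes listed at exactly 0 numbered 0 to 4 per wild-type library and 20, 96 and 184 in nup1 replicates 1, 2 and 3. The sequencing depth is unknown.

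The split between higher and lower genes depended on the scaling between libraries. The median change of the fitted genes was -0.98. Centring each library on its median moved it by 0.44 and gave 1880 genes higher and 1254 lower. Quantile normalization moved it by 0.49 and gave 1899 higher and 1216 lower. Lower genes were thus 63.6% of those past the threshold as deposited, 40.0% after centring and 39.0% after quantile normalization. In a table of selected genes neither scaling can be called the right one. In bulk anthers, fewer cells of a type and less RNA per cell cannot be told apart.

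Genes were named through lists of loci written by role, with symbols entered from recall. A symbol was used only where a reference gene table has it within 3 Mb of the place that the locus number gives. This check is coarse. There were 205 such members in 20 lists. Of these, 77 were listed and 76 fitted, of which 27 were higher, 30 lower and 19 not past the threshold. Of all fitted genes 26.3% were higher and 46.0% lower. The lists on gibberellin synthesis, heat shock factors, small heat shock proteins, cellulose synthases, and sucrose, starch and sugar transport were written after the values had been seen. Some loci of the first lists that could not be named were also fitted, and they are not described here.

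The listed members of the added gibberellin synthesis list were all lower. Of its 5 named enzymes 4 were listed, with a median change of -4.80. Of all fitted genes 46.0% were lower, and their median was -0.98. GA20ox2, named in the first gibberellin list, was not listed. Another 3 loci entered there as enzymes of gibberellin synthesis or breakdown were fitted. No symbol could be matched to them, and they are not described here. CPS1 (LOC_Os02g17780), the copalyl diphosphate synthase that makes the committed step of the pathway, was at 50.2, 39.9 and 55.2 FPKM in wild type and at 2.75, 1.36 and 2.46 in nup1. KO2 (LOC_Os06g37364), the ent-kaurene oxidase, was at 87.5, 64.4 and 84.8 FPKM in wild type and at 7.77, 9.93 and 4.07 in nup1. Both enzymes thus had every nup1 library far below every wild-type library, and the changes were -3.97 ± 0.24 (SE, adjusted p = 2.33e-05, limma) for CPS1 and -3.33 ± 0.30 (adjusted p = 9.51e-05) for KO2.

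The later enzymes of the pathway had higher wild-type levels and larger changes. KAO (LOC_Os06g02019), the ent-kaurenoic acid oxidase, was at 318, 247 and 330 FPKM in wild type and at 0.443, 0.215 and 0.243 in nup1. No nup1 library reached 1 FPKM, and the change was -7.84 ± 0.18 (adjusted p = 6.74e-07). GA20ox3 (LOC_Os07g07420), a gibberellin 20-oxidase that makes the direct precursors of active gibberellins, was at 548, 457 and 560 FPKM in wild type and at 7.33, 20.4 and 5.57 in nup1. The second nup1 library was the highest of its group and still far below wild type, with a change of -5.63 ± 0.41 (adjusted p = 4.54e-05). GID1 (LOC_Os05g33730), the gibberellin receptor, had the opposite sign, with 46.3 ± 8.54 FPKM in wild type and 101 ± 39.9 in nup1 (SD, n = 3). Its change of 1.06 ± 0.29 missed the threshold at an adjusted p of 0.0100, and it passed without nup1 replicate 3 (1.33, adjusted p = 0.00371) and after centring (1.50, adjusted p = 0.000873). The 4 enzymes remained lower in all 6 fits without 1 library, under centring and under quantile normalization.

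At stage 10 the same 4 enzymes were also listed, in a table that was not shown to be normalized together with that of stage 11. Mean FPKM there was 138 in wild type and 15.1 in nup1 for GA20ox3 (change -3.01, adjusted p = 0.000117), and 17.8 and 1.44 for KAO (-2.29, adjusted p = 0.0113). CPS1 stood at 4.38 and 1.55 (-0.91, adjusted p = 0.0954), and KO2 at 14.4 and 7.41 (-0.87, adjusted p = 0.00707). Of the 4, GA20ox3 alone passed the threshold at stage 10. The difference between the stages was not tested.

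Named genes of the pollen sugar supply were mostly lower, and a sucrose exporter was higher. Of the 5 named members of the late pollen and sugar supply list, 4 were listed, 3 lower and 1 higher, against 46.0% and 26.3% of all fitted genes. Another 3 loci of that list were fitted, but no symbol could be matched to them, and they are not described here. INV4 (LOC_Os04g33720), the cell-wall invertase of anthers, which splits sucrose outside the cell, was at 306, 305 and 350 FPKM in wild type. It was at 0.244 and 0.638 in nup1 replicates 1 and 2 and was listed at 0 in replicate 3. The nup1 libraries were thus all near the bottom of the scale (change -7.98 ± 0.21, adjusted p = 1.09e-06), and INV4 was the ninth largest loss among genes that averaged 10 FPKM or more in wild type. HXK5 (LOC_Os05g44760), a hexokinase, which phosphorylates the hexoses that invertase releases, was at 193, 142 and 174 FPKM in wild type and at 29.0, 32.5 and 32.2 in nup1. Its nup1 libraries were close to each other and its change was -2.39 ± 0.16 (adjusted p = 3.40e-05). The hexokinase HXK10 changed by -1.99, from 5.39 ± 0.117 to 0.612 ± 0.145 FPKM.

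SWEET11 (LOC_Os08g42350), a sucrose exporter, rose. It was at 53.9, 42.0 and 46.7 FPKM in wild type and at 314, 158 and 141 in nup1. The first nup1 library was the highest, and the others were still above every wild-type library (change 1.99 ± 0.30, adjusted p = 0.000736; 1.64 without that library). A SWEET6 locus (LOC_Os01g42110), whose reference record carries the symbols SWEET6a and SWEET6b, encodes another sugar transporter of the same family and went the other way. It was at 424, 442 and 387 FPKM in wild type, was listed at 0 in nup1 replicate 1, and was at 7.29 and 1.22 in the other nup1 libraries (change -7.31 ± 0.68, adjusted p = 0.000107). The pair of transporters thus changed in opposite directions.

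Starch enzymes were lower where they were listed. In the list on sucrose, starch and sugar transport 8 of 44 named members were listed, of which 6 were lower, 1 was higher and 1 did not pass. Their median change was -1.77, against -0.98 over all fitted genes, of which 46.0% were lower. SSII-3 (LOC_Os06g12450), a starch synthase that extends the chains of amylopectin, was at 18.7, 16.7 and 16.8 FPKM in wild type and at 0.675, 0.394 and 0.839 in nup1. Every nup1 library was under 1 FPKM (change -3.50 ± 0.20, adjusted p = 1.78e-05). ISA1, an isoamylase that trims those chains, changed by -1.68, and SS1, the starch synthase that makes their short segments, by -1.15. DPE2, a glucanotransferase that uses maltose, and the hexokinase HXK2 each changed by -1.87. After centring, SS1 stood at -0.71 and no longer passed.

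HXK9, another hexokinase, was higher by 1.01, a call that rested on its margin. It ended in 5 of 6 fits without 1 library, at 0.85 without nup1 replicate 1, 1.01 (adjusted p = 0.0108) without nup1 replicate 2, and 1.01, 1.08 and 0.95 (adjusted p = 0.0161, 0.0120 and 0.0212) without wild-type replicates 1, 2 and 3. SWEET16 had 8.52 ± 1.64 FPKM in wild type and 17.4 ± 8.70 in nup1, with groups that overlapped.

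**Figure D2:**
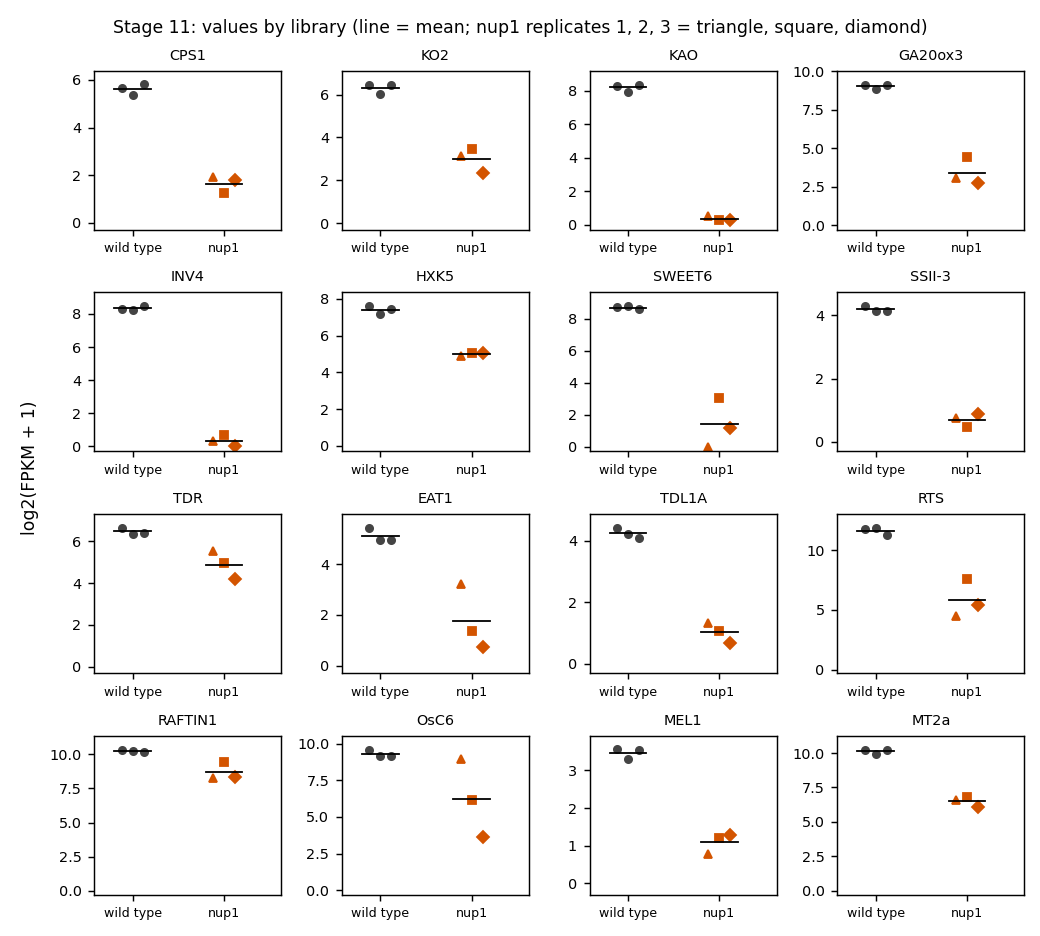
Values of 16 named genes by library at stage 11, as log2(FPKM + 1); circles are the 3 wild-type libraries, the triangle, square and diamond are nup1 replicates 1, 2 and 3, and lines are means. The genes were picked as lower ones, and in all 16 the nup1 libraries lie below the wild-type libraries, as in 57.6% of all fitted genes. KAO, INV4 and SSII-3 have every nup1 library under 1 FPKM, and OsC6 has its first nup1 library at 496 FPKM, close to wild type.

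The regulators of the tapetum were lower as far as they were listed. Of 8 named members 4 were listed and all 4 were lower, with a median change of -2.40, against -0.98 and 46.0% lower over all fitted genes. TDR (LOC_Os02g02820), a bHLH transcription factor needed for tapetum development and degeneration, was at 99.0, 81.0 and 83.7 FPKM in wild type and at 44.7, 30.1 and 17.3 in nup1. The groups did not overlap (change -1.58 ± 0.32, adjusted p = 0.00245). EAT1 (LOC_Os04g51070), a bHLH factor that acts with TDR and switches on the aspartic protease genes AP25 and AP37, was at 42.6, 30.2 and 30.0 FPKM in wild type and at 8.24, 1.60 and 0.673 in nup1. Its first nup1 library was the highest of the mutant but below wild type (change -3.35 ± 0.58, adjusted p = 0.00130).

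TDL1A (LOC_Os12g28750), a small secreted protein that binds the receptor kinase MSP1 and limits the number of spore mother cells, was at 20.6, 17.8 and 16.2 FPKM in wild type and at 1.52, 1.11 and 0.613 in nup1. All nup1 libraries were near 1 FPKM (change -3.22 ± 0.23, adjusted p = 4.23e-05). TIP2, the bHLH factor that acts above TDR and EAT1, changed by -1.01 and was at the margin. That call ended without nup1 replicate 3 (-0.84), without wild-type replicates 1, 2 and 3 (-0.97, -1.07 with an adjusted p of 0.0102, and -0.98) and after centring (-0.57). TDR, EAT1 and TDL1A remained lower in each of these fits.

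The named products of the tapetum were lower to different degrees. Of the 4 named members of the pollen wall and cuticle list, 2 were lower, against 46.0% of all fitted genes, and 2 did not pass. Another 4 loci of that list were fitted but could not be named, and they are not described here. RTS (LOC_Os01g70440), which the tapetum expresses and male fertility requires, was at 3457, 3697 and 2533 FPKM in wild type and at 21.6, 193 and 40.7 in nup1. The second nup1 library was the highest of the mutant (change -5.81 ± 0.71, adjusted p = 0.000312). RAFTIN1 (LOC_Os08g38810), a protein of Ubisch bodies, was at 1297, 1210 and 1151 FPKM in wild type and at 306, 699 and 328 in nup1. Its groups did not overlap (change -1.56 ± 0.32, adjusted p = 0.00254), but it no longer passed when nup1 replicate 3 (adjusted p = 0.0107) or wild-type replicate 1 (adjusted p = 0.0102) was left out, or after centring (-1.12, adjusted p = 0.0147). RTS, RAFTIN1 and OsC6, which are known from anthers, had high wild-type levels in these libraries labelled as anthers. CYP703A3, the other named member of the list, averaged only 11.0 FPKM in wild type. MADS13, a factor of ovule identity, averaged 31.8 FPKM there. The make-up of the tissue was not tested.

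For some tapetal genes the first nup1 library decided the outcome. OsC6 (LOC_Os11g37280), a lipid transfer protein of the tapetum, was at 767, 555 and 569 FPKM in wild type and at 496, 70.1 and 11.6 in nup1. Its change of -3.03 ± 1.15 did not pass (adjusted p = 0.0347), and without nup1 replicate 1 it was -4.38 (adjusted p = 0.00106). CYP703A3 (LOC_Os08g03682), a fatty acid hydroxylase of sporopollenin synthesis, was at 9.35, 13.2 and 10.3 FPKM in wild type and at 7.75, 1.64 and 2.37 in nup1. Again the first nup1 library lay near wild type, and the change was -1.47 ± 0.44 (adjusted p = 0.0133) with it and -1.99 (adjusted p = 0.000341) without it.

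The proteases of tapetal cell death showed the same library apart. AP25 (LOC_Os03g08790), an aspartic protease, was at 5.22, 7.50 and 5.55 FPKM in wild type and at 68.6, 7.33 and 3.27 in nup1. CP1 (LOC_Os04g57490), a cysteine protease, was at 0.257, 0.393 and 0.142 FPKM in wild type and at 6.81, 0.0495 and 0.652 in nup1. Both were high in nup1 replicate 1 alone, and the groups overlapped. Neither passed the threshold (0.95 ± 0.92 and 0.92 ± 0.67), and without that library the values were -0.24 and 0.06. Of the 4 named members of the tapetal cell death list, these were the 2 listed at stage 11.

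Genes of germ cells and meiosis were low in all libraries, with a summed level of 17.3 to 20.9 FPKM in wild type and 7.06 to 10.0 in nup1 over the 5 fitted of 9 named members. MEL1 (LOC_Os03g58600), an Argonaute protein of germ cells, was at 10.9, 8.86 and 10.6 FPKM in wild type and at 0.712, 1.32 and 1.46 in nup1. The nup1 libraries all lay near 1 FPKM (change -2.37 ± 0.22, adjusted p = 0.000106). PAIR2, a protein of the meiotic chromosome axis, changed by -1.13, and that call ended without nup1 replicate 3 (-0.99), without wild-type replicates 1 and 3 (-1.07 and -1.04, adjusted p = 0.0161 and 0.0188) and after centring (-0.69). CRC1 (-0.64), ZEP1 (0.54) and the recombinase DMC1A (0.84), all of meiosis, did not pass. DMC1A has a near-identical copy with which it can share fragments.

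Among floral organ identity genes, 2 of 12 were listed and both were lower, as were 46.0% of all fitted genes. MADS13 (LOC_Os12g10540), a MADS-box factor of ovule identity, was at 32.8, 37.7 and 24.9 FPKM in wild type and at 2.17, 10.1 and 2.82 in nup1. The second nup1 library was the highest of the mutant, below every wild-type library (change -2.66 ± 0.46, adjusted p = 0.00127). MADS4, a factor of petal and stamen identity, changed by -1.12, and by -0.68 after centring, when it no longer passed. None of the 3 named photosynthesis genes was listed. Another 3 loci of that list were fitted but could not be named, and they are not described here.

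Of the 20 named heat shock genes that were fitted, 13 rose in nup1. Of 23 heat shock factors 10 were listed and 9 fitted, of which 7 were higher, 1 was lower and 1 did not pass, with a median change of 2.18. Over all fitted genes 26.3% were higher and the median was -0.98. HSFA2A (LOC_Os03g53340) was at 1.21, 0.781 and 0.902 FPKM in wild type and at 331, 65.3 and 35.2 in nup1. All nup1 libraries lay far above wild type, the first highest of all (change 5.57 ± 0.73, adjusted p = 0.000404). It was the second largest rise among genes that averaged 10 FPKM or more in nup1. HSFA2C (LOC_Os10g28340) was at 16.8, 9.06 and 13.9 FPKM in wild type and at 308, 138 and 66.8 in nup1 (change 3.36 ± 0.52, adjusted p = 0.000776).

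HSFB2C (LOC_Os09g35790) was at 6.71, 4.95 and 5.53 FPKM in wild type and at 102, 35.3 and 21.6 in nup1 (change 2.72 ± 0.51, adjusted p = 0.00177). As in HSFA2A and HSFA2C, nup1 replicate 1 was the highest and replicate 3 the lowest of the mutant, and all were above wild type. HSFC2A rose by 1.77 ± 0.28 (adjusted p = 0.000803), with nup1 libraries at 8.89, 7.60 and 5.83 FPKM against 1.28, 0.891 and 2.38 in wild type. HSFB4B, in contrast, changed by -1.18, with wild-type libraries at 3.89, 4.28 and 2.38 FPKM and nup1 libraries at 1.09, 0.792 and 0.995, and by -0.74 after centring, when it did not pass. The HSFB2A change of 1.15 did not pass (adjusted p = 0.0269), but it did without nup1 replicate 3 (1.50, adjusted p = 0.00949) and after centring.

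The other 3 higher heat shock factors had calls that ended in some fits. HSFA2D changed by 2.18 and lost its call without nup1 replicate 2 (adjusted p = 0.0122), wild-type replicate 2 (adjusted p = 0.0127) and wild-type replicate 3 (adjusted p = 0.0122). HSFB2B changed by 2.23 and lost it without nup1 replicates 1 and 2 (adjusted p = 0.0224 and 0.0312) and wild-type replicates 2 and 3 (adjusted p = 0.0272 and 0.0217). HSFA4B changed by 1.02 and fell under the 2-fold limit without nup1 replicates 2 and 3 (0.95 and 0.97) and wild-type replicate 3 (0.99).

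Small heat shock proteins, chaperones that hold unfolding proteins in solution, were in part higher. Of 19 named members 9 were listed, of which 5 were higher, against 26.3% of all fitted genes, and 4 did not pass. Their median change was 2.99, and the groups of HSP26.2 and HSP23.2 overlapped. HSP18.1 (LOC_Os03g16030) was at 1.78, 1.39 and 1.89 FPKM in wild type and at 106, 55.5 and 37.0 in nup1 (change 4.52 ± 0.36, adjusted p = 6.22e-05). HSP16.0 (LOC_Os06g14240) was at 0.740, 1.26 and 0.420 FPKM in wild type and at 45.6, 25.8 and 10.2 in nup1 (change 3.76 ± 0.50, adjusted p = 0.000423). For both, the lowest nup1 library was far above the highest wild-type library.

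HSP18.6 (LOC_Os02g54140) was at 9.58, 6.28 and 9.41 FPKM in wild type and at 230, 83.4 and 49.1 in nup1 (change 3.42 ± 0.52, adjusted p = 0.000714). HSP16.9C rose by 3.01 and HSP18.0 by 2.99. The 4 that did not pass had changes of 0.87 for HSP26.2, 1.02 for HSP17.7, 1.16 for HSP23.2 and 1.26 for HSP17.9A. Of these, HSP17.9A (1.63), HSP23.2 (1.80) and HSP26.2 (1.35) passed without nup1 replicate 3. Several of these genes are close relatives, and HSP18.1 and HSP17.7 are neighbours on chromosome 3, so their fragments can have been shared between them. HSP101 (LOC_Os05g44340), which pulls proteins out of aggregates, was at 8.90, 11.8 and 10.7 FPKM in wild type and at 92.6, 44.8 and 29.7 in nup1. Its lowest nup1 library was above every wild-type library (change 2.15 ± 0.38, adjusted p = 0.00143).

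The first nup1 library was the highest of the mutant in 19 of the 20 fitted heat shock genes, against 47.9% of all fitted genes. It was also the highest in 34 of the 41 list members with a change above 0, heat shock genes included. Of all fitted genes with a change above 0 the share was 43.9%. Without that library, 6 factors, 5 small heat shock proteins and HSP101 were still higher. The change without it was 4.64 for HSFA2A, 2.81 for HSFA2C, 4.11 for HSP18.1 and 1.71 for HSP101. Summed over the 9 fitted factors, levels were 36.0 to 58.0 FPKM in wild type and 868, 325 and 177 in nup1 replicates 1, 2 and 3. Of the 13 heat shock genes past the threshold upward, 12 remained without that library, and HSFB2B did not. The cause of its high values was not tested.

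At stage 10, HSFC2A (1.38) and HSP18.0 (2.34) were listed and higher as well. HSFB2B had a change of -0.90 there (adjusted p = 0.0138), and HSP26.7, a plastid small heat shock protein, was lower at -1.69 (adjusted p = 0.00133), against 0.92 ± 0.62 at stage 11, where it did not pass. HSFA2A, HSFA2C, HSP18.1 and HSP101 are not in the stage 10 table.

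**Figure D3:**
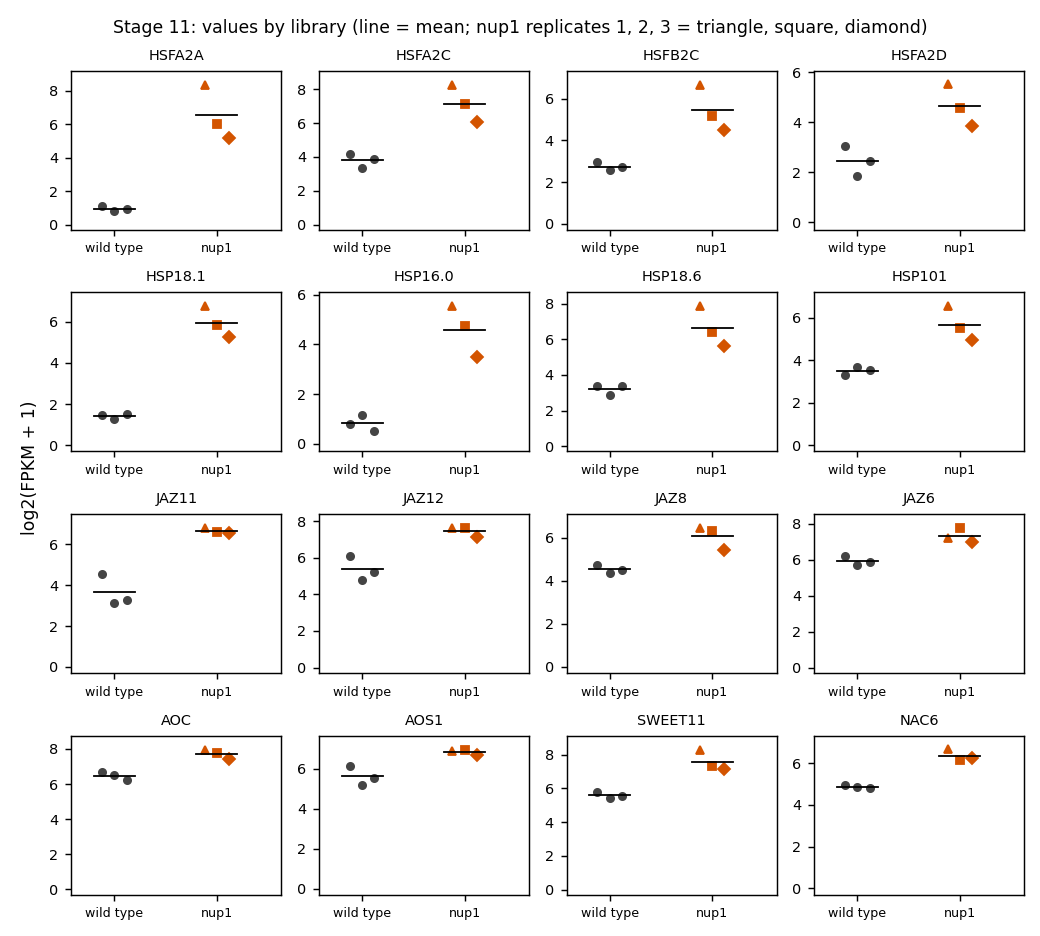
Values of 16 named genes by library at stage 11, as log2(FPKM + 1); circles are the 3 wild-type libraries, the triangle, square and diamond are nup1 replicates 1, 2 and 3, and lines are means. The genes were picked as higher ones, and in all 16 the nup1 libraries lie above the wild-type libraries, as in 37.0% of all fitted genes. In the heat shock genes of the upper rows the triangle is the highest and the diamond the lowest of the mutant, with HSFA2A at 331, 65.3 and 35.2 FPKM, while the nup1 libraries of JAZ11 lie together at 93.3 to 111 FPKM.

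Most listed jasmonate genes rose. Of 20 named members 8 were listed, of which 7 were higher, against 26.3% of all fitted genes, and 1 was lower. The 7 remained higher without nup1 replicate 1. The JAZ proteins are repressors of jasmonate signalling whose genes are themselves induced by the hormone. JAZ11 (LOC_Os03g08320) was at 22.1, 7.77 and 8.75 FPKM in wild type and at 111, 97.0 and 93.3 in nup1. The nup1 libraries were close together and all above wild type (change 3.01 ± 0.36, adjusted p = 0.000288). JAZ12 (LOC_Os10g25290) was at 67.5, 26.5 and 36.2 FPKM in wild type and at 197, 196 and 140 in nup1 (change 2.10 ± 0.34, adjusted p = 0.000906). In both genes the first wild-type library was the highest of its group.

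JAZ8 rose by 1.54 ± 0.28 (adjusted p = 0.00151), with nup1 libraries at 87.2, 77.4 and 42.7 FPKM against 25.6, 19.8 and 21.3. JAZ6 rose by 1.39 ± 0.24 (adjusted p = 0.00121), from 61.3 ± 11.6 to 165 ± 47.0 FPKM. JAZ5 had a change of 1.12, but its call ended without nup1 replicates 2 and 3 (adjusted p = 0.0110 and 0.0178) and wild-type replicates 1 and 3 (adjusted p = 0.0165 and 0.0241). Its level was low, at 2.57 ± 0.964 FPKM in wild type and 6.63 ± 1.52 in nup1.

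Enzymes of the jasmonate pathway changed in both directions. AOC (LOC_Os03g32314), the allene oxide cyclase, was at 102, 89.0 and 74.5 FPKM in wild type and at 249, 214 and 174 in nup1. The groups did not overlap (change 1.25 ± 0.19, adjusted p = 0.000776). AOS1, the allene oxide synthase of the preceding step, rose by 1.23, and missed the threshold when wild-type replicate 3 was left out (1.19, adjusted p = 0.0112). JAR1 (LOC_Os05g50890), which joins jasmonate to isoleucine to form the active hormone, was at 128, 95.2 and 114 FPKM in wild type and at 46.9, 35.7 and 34.0 in nup1. All nup1 libraries were below wild type (change -1.51 ± 0.19, adjusted p = 0.000330), and JAR1 remained lower under both scalings.

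Of 11 named stress and defence genes 6 were listed, of which 4 were higher, against 26.3% of all fitted genes, and 2 did not pass. NAC6 (LOC_Os01g66120), a stress-responsive transcription factor, was at 30.1, 28.1 and 26.8 FPKM in wild type and at 99.5, 71.0 and 75.6 in nup1 (change 1.49 ± 0.17, adjusted p = 0.000258). LEA3, a protein that accumulates in drying tissue, rose by 1.70 ± 0.29 (adjusted p = 0.00112), from 5.91 ± 1.43 to 22.0 ± 8.13 FPKM. Both kept their calls in each fit without 1 library.

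WRKY71, a transcription factor of defence, changed by 1.61, but the call ended without nup1 replicates 1 and 2 (adjusted p = 0.0105 and 0.0135) and wild-type replicate 3 (adjusted p = 0.0115). BZIP23, a factor of abscisic acid responses, changed by 1.15, and its call ended without nup1 replicates 1 and 2 (adjusted p = 0.0183 and 0.0249) and wild-type replicates 2 and 3 (adjusted p = 0.0240 and 0.0216). PR10a, a pathogenesis-related protein, was at 20.3 ± 4.04 FPKM in wild type and 41.8 ± 10.2 in nup1, missed the threshold narrowly on the fold, and passed without nup1 replicate 2 (1.21), without wild-type replicate 2 (1.12) and after centring. DREB1B, a cold-responsive factor, stood at 91.1 ± 45.3 FPKM in wild type and 37.9 ± 6.59 in nup1, and passed without wild-type replicate 2 (-1.50, adjusted p = 0.00360).

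The oxidative burst in the study's title makes oxidant removal of interest. Of 15 named members 4 were listed, of which 2 were lower and 2 did not pass, a share near the 46.0% lower of all fitted genes. APX1 (LOC_Os03g17690), the cytosolic ascorbate peroxidase, which removes hydrogen peroxide, was at 1282, 1228 and 1361 FPKM in wild type and at 689, 572 and 571 in nup1. The groups did not overlap (change -1.08 ± 0.16, adjusted p = 0.000625), but the change was -0.64 after centring and 0.06 after quantile normalization, so its direction rested on the scaling. SODCP, a chloroplast copper-zinc superoxide dismutase, was lower at 30.1 ± 3.52 FPKM in nup1 against 61.2 ± 4.41 in wild type, just past 2-fold, and its call ended without nup1 replicate 3 (-0.92), without wild-type replicate 2 (-0.95) and after centring (-0.56).

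The chloroplast peroxidase APX8 changed by -0.91 and passed without wild-type replicate 1 (-1.03). The peroxidase APX3 changed by 1.02 (adjusted p = 0.0171) and passed without nup1 replicate 3 (1.29) and after centring. The single respiratory burst oxidase named was not listed. Another 2 loci of that list of 9 were fitted, but no symbol could be matched to them, and they are not described here. MT2a (LOC_Os01g05650), a metallothionein, a small protein that binds metals, had a large and stable loss. It was at 1216, 992 and 1214 FPKM in wild type and at 94.6, 114 and 67.0 in nup1. All nup1 libraries lay far below wild type (change -3.65 ± 0.22, adjusted p = 2.36e-05; -3.21 after centring and -2.90 after quantile normalization). At stage 10 its means were 433 and 33.7 FPKM (change -3.58).

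Genes often taken as constant references were not level on the deposited scale. ACT1, an actin, was at 865 ± 121 FPKM in wild type and 381 ± 94.2 in nup1 (change -1.21, adjusted p = 0.00193), and the call ended without nup1 replicate 1 (-0.98) and after centring (-0.76). EF1a, a translation elongation factor with near-identical copies, changed by -1.40, and by -0.96 after centring. After centring, 10 of the 30 lower members no longer passed, among them both reference genes, APX1, SODCP, TIP2 and RAFTIN1. CESA5, a cellulose synthase and the single listed member of 9, was higher by 1.08, with nup1 libraries at 67.5, 73.5 and 67.8 FPKM against 34.2, 31.7 and 31.2.

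**Figure D4:**
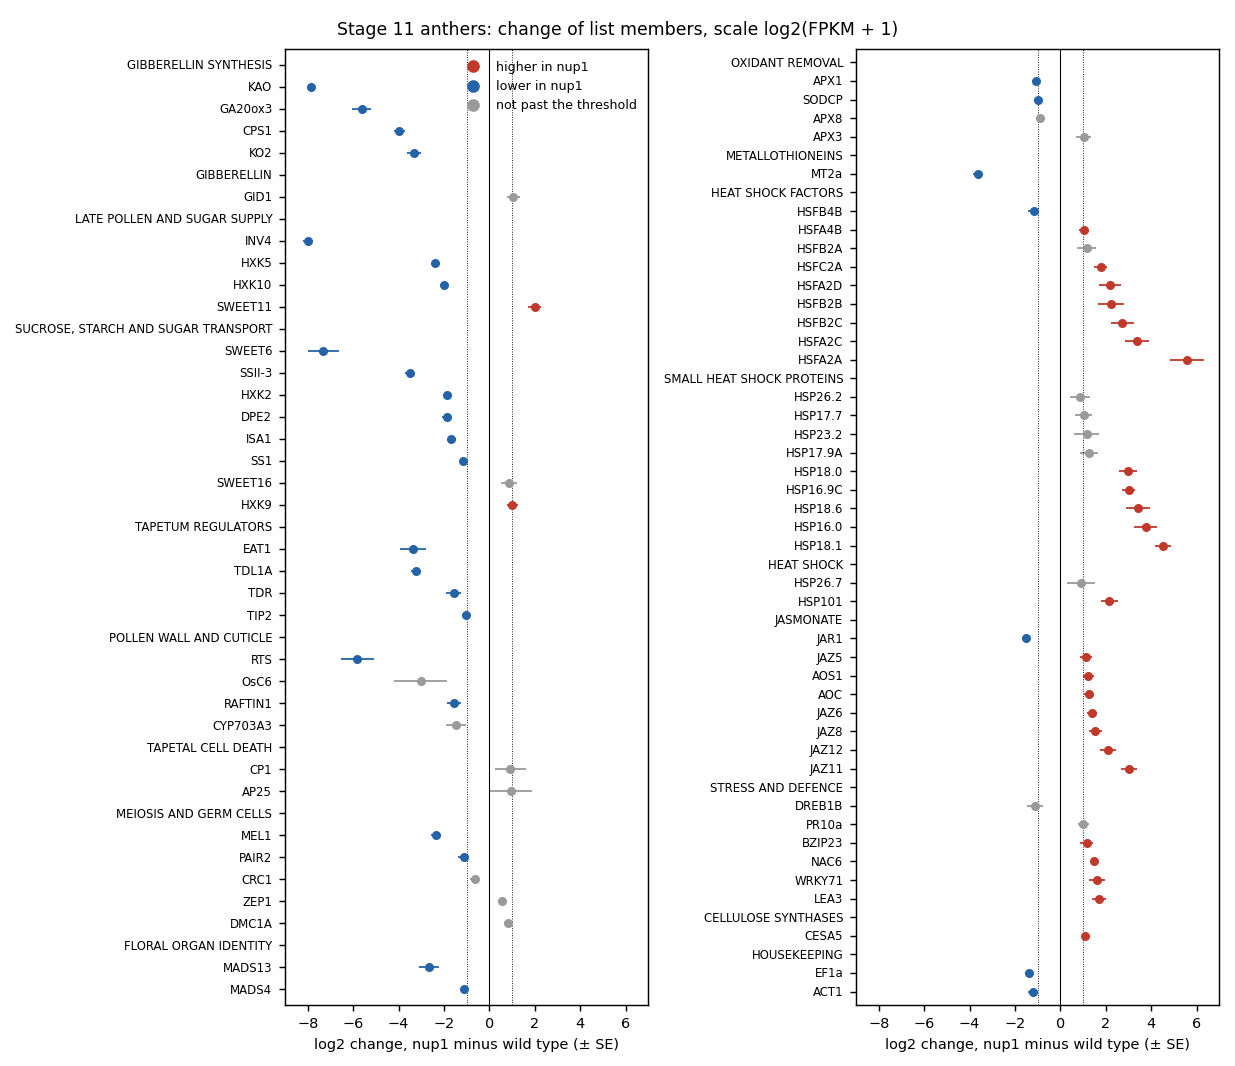
Log2 change of the 76 fitted members by list, nup1 minus wild type, with bars of 1 SE; red is higher, blue lower and grey not past the threshold, and dotted lines mark 2-fold. The 4 gibberellin synthesis enzymes lie between -7.84 and -3.33, and the higher heat shock factors between 1.02 and 5.57. In the sugar lists INV4 at -7.98 and SWEET11 at 1.99 lie far apart.

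Across the stages, 29 of the 76 fitted members were also in the stage 10 table. Of these, 10 were lower at both stages, 5 were higher at both and 0 passed in opposite directions. These are 34.5%, 17.2% and 0% of the 29, against 35.2%, 15.2% and 6.76% of the 1405 genes fitted at both stages, so the shares lower or higher at both were near those of all genes. Another 7 passed at stage 11 alone and 6 at stage 10 alone. The genes lower at both included RTS, RAFTIN1, MT2a, INV4, SSII-3, ISA1 and JAR1, and those higher at both were HSFC2A, HSP18.0, AOS1, SWEET11 and NAC6. CYP703A3 was higher at stage 10 (4.08, adjusted p = 0.000569), with the opposite sign at stage 11. AP25 and CP1 were higher at stage 10 (2.22 and 2.86), while neither passed at stage 11. Of all 4992 fitted genes, 28.6% were also in the stage 10 table. Whether changes differed between stages was not tested.

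The largest changes mostly fell on loci without a symbol in the reference table. The largest losses were at LOC_Os03g56940, at 6836, 6596 and 6441 FPKM in wild type and 0.493, 18.3 and 4.46 in nup1 (change -10.26 ± 0.80, adjusted p = 5.51e-05), and LOC_Os02g49350, at 1893, 1767 and 1812 FPKM in wild type and 0, 1.88 and 0.937 in nup1 (-10.01 ± 0.36, adjusted p = 3.60e-06). The first of these was among the most abundant transcripts of the wild-type libraries and was almost lost. The largest rise was at LOC_Os10g05930, at 2.36, 0.777 and 0.945 FPKM in wild type and 391, 115 and 120 in nup1 (6.29 ± 0.50, adjusted p = 5.77e-05). A locus close by, LOC_Os10g05910, was at 0.393, 0.454 and 0.443 FPKM in wild type and 158, 12.1 and 28.1 in nup1 (4.78 ± 0.81, adjusted p = 0.00113). Both rises were highest in nup1 replicate 1.

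Neighbouring genes changed in the same direction more often than the frequencies of the directions give. Locus numbers follow the order along a chromosome, and successive listed loci up to 10 numbers apart formed 676 pairs. In 430 pairs, 63.6%, both members had the same sign, with 287 pairs lower and 143 higher, against 51.6% from the frequencies alone. The share was 64.0% among genes past the threshold, where the frequencies give 53.7%. It was 61.6% for loci up to 20 numbers apart and 62.9% after centring. All 3 of these settings were added after the data had been seen. The longest run of successive loci with the same sign was 5 loci, from LOC_Os05g48290 to LOC_Os05g48330, all lower by -2.02 to -0.81, of which 3 passed. Near-identical tandem copies can share fragments, and their part in the share was not tested.

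**Figure D5:**
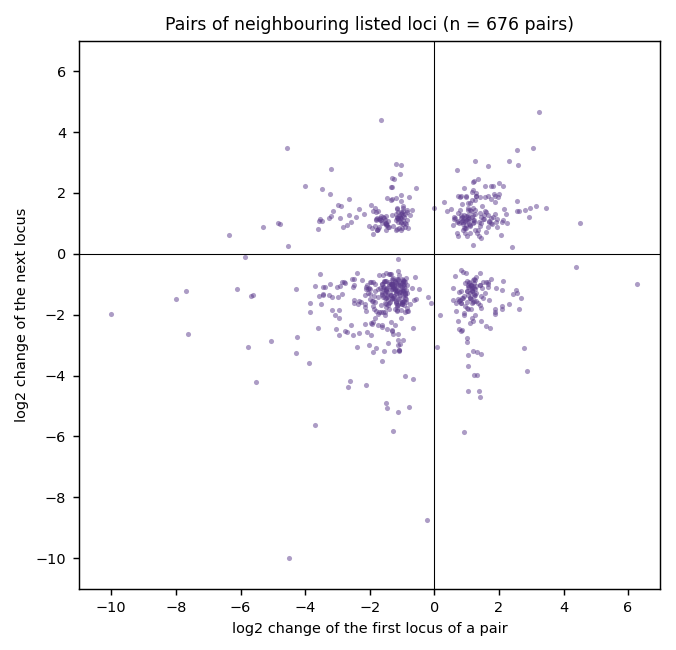
Each of the 676 points is a pair of successive listed loci up to 10 numbers apart, with the log2 change of the first locus across and that of the next upward. More points lie where both signs are equal, 287 with both lower and 143 with both higher, than where they are opposite, with 246.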

How the data were processed

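Per the series' design text and the submitters' processing notes, HISAT2 mapped paired reads of 150 bases from NEBNext Ultra libraries to the MSU rice genome, release 7. Cufflinks gave expression levels and the selected genes (false discovery rate under 0.01, fold over 2). Versions of both programs: not given in the sources used here. In the stage 11 table the authors deposited FPKM per library for selected genes only. Genotypes were compared on log2(FPKM + 1) by limma (version 3.58.1, under R 4.3.3), using its mean-variance trend and the Benjamini-Hochberg adjustment over all 4992 genes whose mean reached 1 FPKM. A fold change on this scale understates the change of low genes. Adjustment runs over genes selected on the same libraries, so it is no independent test of the authors' calls. Whole-read steps were seen only in part among the low values. Between replicates, 26.9% to 32.9% of ratios lay on such steps at the best shift, against 4.54% to 5.11% averaged over shifts. The best shift is a maximum picked from many, and no depth was derived from it, so depth is unknown. The fit was tested on simulated data.

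The tables give locus identifiers alone. Symbols were entered for loci from recall, and a member was named only where the RefSeq gene table (assembly ASM3414082v1) has that symbol on the same chromosome within 3 Mb of the place that the locus number gives, which left 105 of 169 members of the first lists and 100 of 100 of the added ones. Members and lists were chosen with earlier results of these data known, and the 5 added lists after the values had been seen. Full values are given for at most 6 members of a list, and these are not always the members with the largest change. HSFB2B, HSFA2D, WRKY71, LEA3 and JAZ6 are given without library values, unlike some members of their lists with smaller changes. Of the 10 largest rises and falls at most 2 of each are named where no symbol is known. Samples were not paired in the main comparison.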

Additional observations from a re-analysis of the deposited data

How the results depend on the processing

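Counts of genes past the threshold moved most with the pseudocount and the scaling. With a pseudocount of 5 FPKM, 760 genes were higher and 1408 lower. Lower genes numbered 1254 after median centring and 1216 after quantile normalization. Leaving out 1 library in turn gave 962 to 1222 higher and 1878 to 2364 lower. With the replicate number as a block, 1231 were higher and 2241 lower. Deviations of same-numbered replicates from their group means were weakly correlated (-0.093, -0.229 and 0.083). With 3 libraries per group these deviations depend on each other. Whether same-numbered replicates share more than a number cannot be told from them. Under the block, of 76 members 72 were unchanged in direction and call, 3 lost their call (JAZ5, PAIR2 and TIP2) and 1, GID1, gained one. The other pseudocount, the other filters on low values and the fit without a mean-variance trend left both counts within 1.5 times their values.

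Of 57 members past the threshold, 44 passed in all 6 fits without 1 library and 13 did not in 1 or more. The sign turned for AP25, whose change without 1 library ranged from -0.24 (without nup1 replicate 1) to 1.78, and for APX1, to 0.06 under quantile normalization. The cause was not tested. Unknown depth limits what can be said of genes near 1 FPKM, and genes outside the table are not analysed here.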
